A study of Mus musculus with 121 samples.

Results

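The complement components and receptors C1qa, C1qb, C1qc, C3, C4b, C3ar1, C5ar1, Serping1 and Masp1 were followed over brain regions, mouse models and genotypes. They were taken from the table of raw read counts by exact symbol, and make up 9 of its 24412 genes. The study measured gene expression in the brain of mice with a conditional allele of Gdnf, cKU, which is built to raise Gdnf's own expression once Cre recombinase has acted on it. RNA from prefrontal cortex, striatum and substantia nigra, dissected from 2-mm slices, was sequenced as stranded mRNA libraries with 75 bp single-end reads. In the Nestin-Cre model (GDNF cKU x Nestin-Cre) Cre is made in neural progenitors, a lineage that does not give rise to microglia, and the labels give 2 months of age. In the AAV-Cre model (GDNF cKU +AAV-Cre) a Cre virus was injected into both striata at 3 to 5 months and mice were taken at 5 to 7 months.

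All mice were adult males of a mixed 129Ola/ICR/C57bl6 background. Genotypes were wt/wt (WT), wt/cKU (HET) and cKU/cKU (HOM), and WT littermates carried Nestin-Cre or received AAV-Cre as well. The Nestin-Cre groups held 8 WT, 6 HET and 4 HOM libraries in prefrontal cortex, and 6 WT, 7 HET and 6 HOM libraries in each of striatum and substantia nigra. The AAV-Cre groups held 7 WT, 7 HET and 8 HOM libraries in prefrontal cortex and in substantia nigra, and 7 of each genotype in striatum. The libraries came from 43 mice, each library with 9869584 to 26750905 counted reads (median 17885830). Mouse M4575 was labelled WT in prefrontal cortex and HOM in striatum and substantia nigra, and each library was used as labelled. Levels are in cpm (read counts scaled to library size), fold changes are log2 with ± as the SE, and n is the number of libraries in the group.

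Gdnf itself was highest in striatum. In AAV-Cre striatum it lay between 5.45 and 7.45 cpm in WT (median 6.74), between 6.46 and 9.43 in HET (median 7.37) and between 7.71 and 9.98 in HOM (median 8.67), so that each of 7 HOM libraries was above every WT library. In Nestin-Cre striatum it lay between 3.88 and 7.21 cpm in WT (median 5.98), between 4.04 and 9.05 in HET (median 5.67) and between 5.79 and 9.59 in HOM (median 6.65), with overlap between all 3. The edgeR log2 fold change over WT for Gdnf was 0.40 ± 0.09 in AAV-Cre striatum HOM (adjusted p 0.504, rank 10 of 14655 genes), 0.20 in HET (adjusted p 1), and 0.28 and 0.07 in Nestin-Cre striatum HOM and HET (adjusted p 0.784 and 0.85). The paper reports more striatal Gdnf mRNA by qPCR in both models, and a shorter 3'UTR of the mRNA once Cre has acted. Gdnf was counted here over 4867 exonic bases, and how far this understates such shorter mRNA was not tested. Outside striatum Gdnf was at most 1.67 cpm in any library. Its medians in WT, HET and HOM were 0.393, 0.355 and 0.133 cpm in Nestin-Cre prefrontal cortex, 0.452, 0.5259 and 0.705 in Nestin-Cre substantia nigra, 1.02, 1.19 and 0.7099 in AAV-Cre prefrontal cortex, and 0.232, 0.404 and 0.473 in AAV-Cre substantia nigra. The region labels matched marker sums in every library. Striatal markers (most abundant per length Penk, mean 767.3 cpm) summed to 5911 to 10892 cpm in striatum and at most 1487 elsewhere. Cortical markers (most abundant per length Slc17a7, 560.2 cpm) summed to 1700 to 2206 cpm in prefrontal cortex and at most 518.9 elsewhere. Midbrain markers (most abundant per length Th, 223.2 cpm) summed to 1475 to 5056 cpm in substantia nigra and at most 51.4 elsewhere.

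Complement is a cascade of serum and locally made proteins that tags surfaces for uptake. C1q starts its classical pathway, C4 and C3 are cleaved and deposited downstream, and C3a and C5a act on receptors. In the brain, C1q transcripts are known mainly from microglia and C4b mainly from astrocytes and oligodendrocytes. The members were identified by Entrez ID and mm10 position, all on the minus strand. C1qb (12260, chromosome 4, 136880145 to 136886177), C1qc (12262, 136889802 to 136892914) and C1qa (12259, 136895916 to 136898844) lie side by side. C4b (12268, 34728381 to 34743897) and C3 (12266, 57203967 to 57228136) are on chromosome 17, and Masp1 (17174, 23451785 to 23520590) is on chromosome 16. Serping1 (12258, 84765360 to 84775429) is on chromosome 2, C3ar1 (12267, 122847140 to 122856157) on chromosome 6 and C5ar1 (12273, 16246743 to 16259540) on chromosome 7.

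Per length of counted exon, the median over all libraries was 50.9 RPKM (cpm per exon length) for C1qa, 46.4 for C1qb and 45.4 for C1qc, with group medians that overlapped (28.1 to 65.6, 32.5 to 62.5 and 26.6 to 64.9). C4b followed at 10.02 RPKM (group medians 2.25 to 22.2), Serping1 at 4.82 (2.26 to 21.8) and Masp1 at 3.14 (1.30 to 4.30). C3ar1 at 0.571 RPKM (0.370 to 0.912), C3 at 0.502 (0.0318 to 1.98) and C5ar1 at 0.201 (0.122 to 0.335) were lowest. Serping1 was above Masp1 in all 18 group medians. C4b was below both in Nestin-Cre prefrontal cortex, and below Serping1 in Nestin-Cre substantia nigra HET and HOM. C3 was above C3ar1 in substantia nigra and AAV-Cre striatum and below it elsewhere. C4b is 1 of a pair of near-identical genes. Its neighbour C4a (625018, chromosome 17, 34809092 to 34823454) stood at 0.583 RPKM, and because the handling of reads that fit both genes is not given in the sources used here, how the reads divide between C4b and C4a is uncertain.

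Between regions in WT mice, members called at an adjusted p under 0.1 were counted beside the share of all genes called in the same comparison. In Nestin-Cre WT mice, 6 members were higher and 2 lower in striatum than in prefrontal cortex (of all genes tested, 35.3% were called higher and 35% lower). In substantia nigra, 8 were higher and 0 lower than in prefrontal cortex (38.8% and 41.5% of all genes), and 5 were higher and 0 lower than in striatum (39.4% and 39%). The counts over prefrontal cortex include C3 and C5ar1, at 0 to 12 and 3 to 10 reads per cortical library. They passed the filter through other groups, which limits their differences. In AAV-Cre WT mice, striatum held 3 higher and 2 lower than prefrontal cortex (31.7% and 29.6% of all genes). Substantia nigra there held 2 higher and 1 lower than prefrontal cortex (33.5% and 37.1%), and 3 higher and 3 lower than striatum (35.4% and 36.8%). The median log2 fold change of the 9 members in these 6 comparisons was 0.61, 0.86, 0.46, 0.18, -0.06 and -0.14, against 0.00, -0.02, 0.02, 0.02, -0.02 and -0.01 for all genes tested.

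Between models, the counts of members called higher and lower differed by region. AAV-Cre WT mice had 7 members called higher and 1 lower than Nestin-Cre WT mice in prefrontal cortex (20.2% and 20.9% of all genes tested), 2 higher and 0 lower in striatum (30.6% and 29.1%), and 1 higher and 5 lower in substantia nigra (34.4% and 28.3%). The 7 in prefrontal cortex include C3 and C5ar1, at 0 to 12 and 3 to 10 reads per Nestin-Cre library there. They passed the filter through other groups. DESeq2 called 8, 2 and 6 members in these 3 comparisons, beside 6381, 9173 and 9607 of all 15318 genes tested. The members' median was 0.60 in prefrontal cortex, 0.17 in striatum and -0.41 in substantia nigra, against 0.01, 0.01 and 0.04 for all genes. The models differ at once in age, source of Cre, surgery and experiment, and these cannot be told apart. Tested as differences between regions, 1 member had a higher and 1 a lower model difference in striatum than in prefrontal cortex (15.2% and 14.1% of all genes), 6 a higher and 0 a lower one in striatum than in substantia nigra (14.7% and 19.3%), and 0 a higher and 7 a lower one in substantia nigra than in prefrontal cortex (25.3% and 19.8%). The members' medians for these 3 differences were -0.43, 0.60 and -1.03, against 0.00, -0.03 and 0.03 for all genes.

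**Figure D1:**
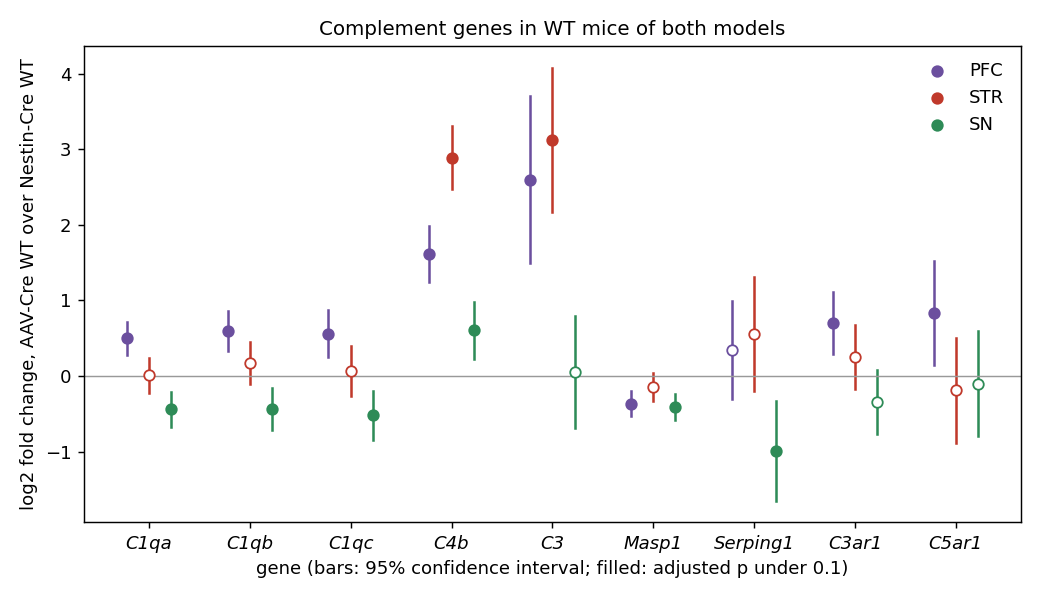
Log2 fold change of AAV-Cre WT over Nestin-Cre WT for each of 9 genes in the 3 regions, with bars for the 95% confidence interval and filled points for an adjusted p under 0.1. C4b lay above 0 in all 3 regions, and the 3 C1q genes lay above 0 in prefrontal cortex and below 0 in substantia nigra.

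C1qa, C1qb and C1qc encode the chains of C1q, the recognition protein of the classical pathway. In Nestin-Cre WT mice C1qa lay between 32.8 and 43.7 cpm in prefrontal cortex (median 37.7, n = 8), and between 50.1 and 75.9 in striatum (median 61.6, n = 6). It lay between 62.2 and 84.4 in substantia nigra (median 70.9, n = 6). For AAV-Cre WT mice the values were between 41.6 and 73.4 cpm in prefrontal cortex (median 55.5, n = 7), between 54.0 and 77.6 in striatum (median 61.4, n = 7) and between 42.2 and 64.4 in substantia nigra (median 51.7, n = 7). In Nestin-Cre mice every striatal and nigral library was thus above every cortical one, whereas in AAV-Cre mice the 3 regions overlapped. C1qb in Nestin-Cre WT mice lay between 30.0 and 47.6 cpm in prefrontal cortex (median 34.7), between 43.4 and 77.0 in striatum (median 53.2) and between 49.3 and 95.9 in substantia nigra (median 66.4). Its AAV-Cre WT values were 47.4 to 73.3 cpm (median 55.1), 55.6 to 76.3 (median 63.7) and 37.6 to 62.3 (median 51.0) in the same order. Only the nigral and cortical libraries of the Nestin-Cre model were fully apart for C1qb. For C1qc, Nestin-Cre WT medians were 31.8, 54.4 and 68.4 cpm and AAV-Cre WT medians 49.0, 59.1 and 50.8, within 26.4 to 93.3 cpm over all 41 WT libraries.

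In Nestin-Cre WT mice the log2 fold change of striatum over prefrontal cortex was 0.73 ± 0.11 for C1qa (adjusted p 4.99e-07), 0.61 ± 0.13 for C1qb (0.000134) and 0.70 ± 0.16 for C1qc (0.000167). Substantia nigra exceeded prefrontal cortex by 0.77 ± 0.11 for C1qa (adjusted p 1.26e-07), 0.73 ± 0.13 for C1qb (6.41e-06) and 0.86 ± 0.16 for C1qc (6.29e-06). Substantia nigra and striatum were not called apart, with 0.03 for C1qa (95% confidence interval -0.21 to 0.28), 0.12 for C1qb (-0.17 to 0.41) and 0.16 for C1qc (-0.18 to 0.49). Substantia nigra was below striatum in AAV-Cre WT mice, with -0.42 ± 0.11 for C1qa (adjusted p 0.00134), -0.48 ± 0.13 for C1qb (0.0016) and -0.43 ± 0.16 for C1qc (0.0145), and for each gene 7 of 7 nigral libraries were below the striatal mean. Against prefrontal cortex, AAV-Cre WT striatum had 0.24 ± 0.11 for C1qa (adjusted p 0.0674, and 0.111 without the striatal libraries of M3585 and M3588, with 0.0236 to 0.111 over the alternatives), 0.18 for C1qb (-0.08 to 0.45) and 0.21 for C1qc (-0.11 to 0.53). With the mouse as a block the C1qb value was 0.20 and was called (adjusted p 0.0706, with 0.0706 to 0.335 over the alternatives). AAV-Cre WT substantia nigra against prefrontal cortex had -0.17 for C1qa (-0.40 to 0.05), -0.30 ± 0.13 for C1qb (adjusted p 0.0485, and 0.141 without the cortical library of M3588 and the striatal library of M3677, with 0.00766 to 0.141 over the alternatives) and -0.22 for C1qc (-0.54 to 0.10).

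Between the models, C1q transcripts were higher in AAV-Cre than in Nestin-Cre WT prefrontal cortex. The log2 fold change was 0.50 ± 0.11 for C1qa (adjusted p 0.000656), 0.60 ± 0.13 for C1qb (0.00055) and 0.56 ± 0.15 for C1qc (0.00453). For each, 7 of 7 AAV-Cre libraries were above the Nestin-Cre mean, with 5, 6 and 4 of them above every Nestin-Cre library. In striatum the differences were 0.01 for C1qa (-0.23 to 0.24), 0.17 for C1qb (-0.11 to 0.45) and 0.07 for C1qc (-0.26 to 0.39), and none was called. In substantia nigra AAV-Cre WT libraries were lower, with -0.44 ± 0.12 for C1qa (adjusted p 0.0014), -0.43 ± 0.14 for C1qb (0.00739) and -0.52 ± 0.16 for C1qc (0.00615), and 7 of 7 were below the Nestin-Cre mean for each. The model difference in substantia nigra was below that in prefrontal cortex by -0.94 ± 0.16 for C1qa (adjusted p 1.61e-05), -1.03 ± 0.19 for C1qb (4.53e-05) and -1.08 ± 0.22 for C1qc (0.000189). Between striatum and substantia nigra it differed by 0.45 ± 0.17 for C1qa (0.0406), 0.61 ± 0.20 for C1qb (0.0204) and 0.59 ± 0.23 for C1qc (0.0548). Between striatum and prefrontal cortex it differed by -0.49 ± 0.16 for C1qa (0.0241), with -0.43 for C1qb (0.102) and -0.49 for C1qc (0.107) not called.

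**Figure D2:**
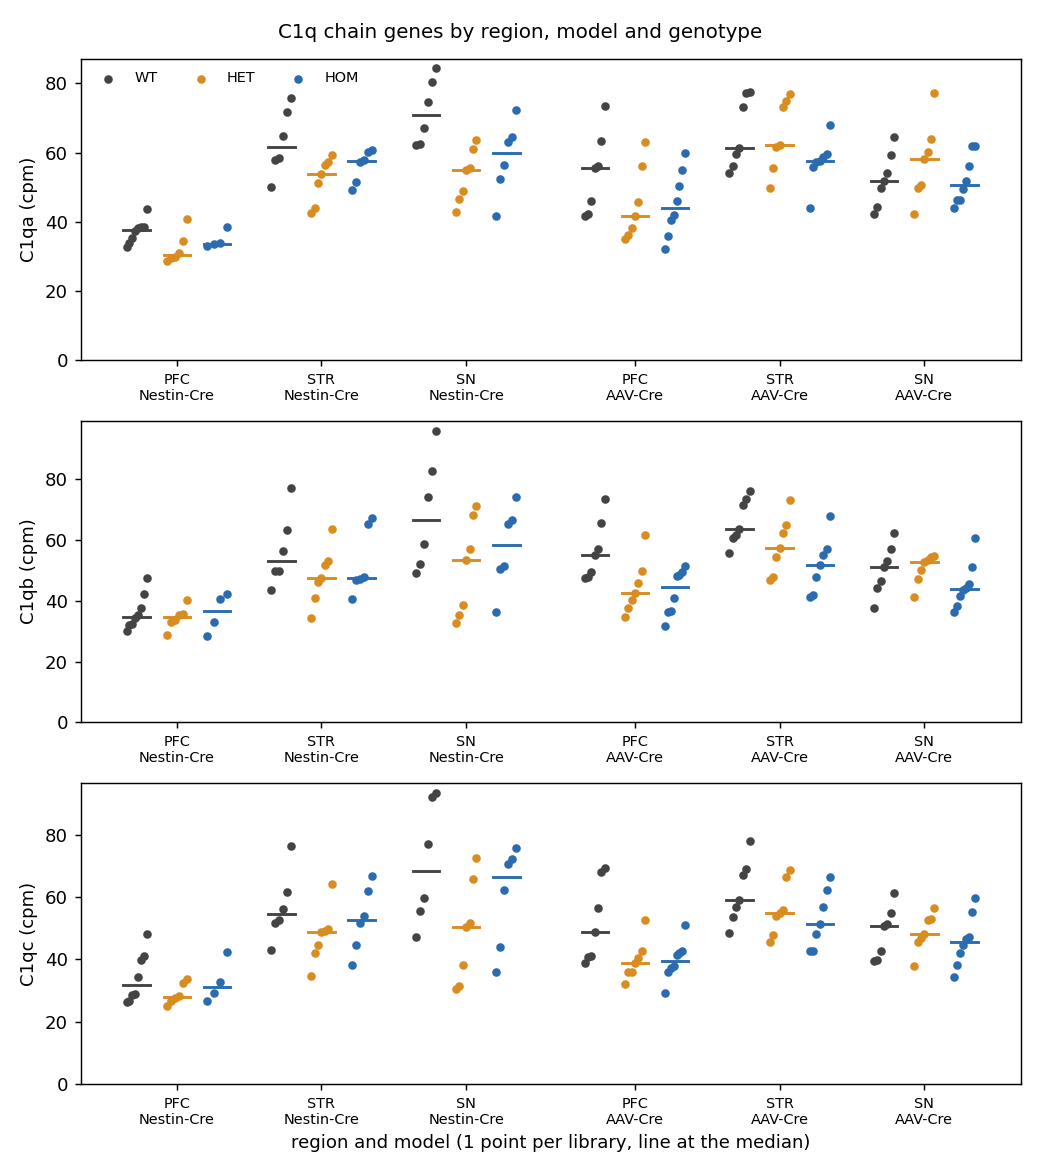
Level of C1qa, C1qb and C1qc in cpm by region, model and genotype, with 1 point per library and a line at the group median. Nestin-Cre WT medians of C1qa were 37.7, 61.6 and 70.9 cpm in prefrontal cortex, striatum and substantia nigra, against 55.5, 61.4 and 51.7 in AAV-Cre WT mice.

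C4b and C3 encode the proteins that are cleaved and deposited after C1q or lectin binding. C4b in Nestin-Cre WT mice lay between 9.40 and 19.6 cpm in prefrontal cortex (median 14.6), between 9.73 and 19.7 in striatum (median 17.2) and between 52.6 and 102.2 in substantia nigra (median 77.7). Its AAV-Cre WT values lay between 33.1 and 72.0 cpm in prefrontal cortex (median 39.1), between 95.9 and 195.5 in striatum (median 114.1) and between 68.6 and 158.2 in substantia nigra (median 119.6). Every AAV-Cre library exceeded every Nestin-Cre library in prefrontal cortex and striatum, and the nigral libraries overlapped. The log2 fold change of AAV-Cre over Nestin-Cre WT was 2.89 ± 0.21 in striatum (adjusted p 1.05e-12, rank 1 of 15318 genes), 1.62 ± 0.18 in prefrontal cortex (1.32e-07, rank 10) and 0.61 ± 0.19 in substantia nigra (0.00554, 6 of 7 above the Nestin-Cre mean and 5 above every library). The model difference of C4b was larger in striatum than in prefrontal cortex by 1.28 ± 0.27 (adjusted p 0.000816) and than in substantia nigra by 2.28 ± 0.27 (1.67e-06, rank 2). It was smaller in substantia nigra than in prefrontal cortex by -1.01 ± 0.26 (0.00212). Between regions of Nestin-Cre WT mice, substantia nigra exceeded prefrontal cortex by 2.25 ± 0.19 (1.01e-13) and striatum by 2.11 ± 0.21 (8.05e-12), without overlap, and striatum and prefrontal cortex differed by 0.13 (-0.27 to 0.53). Within the AAV-Cre WT group striatum exceeded prefrontal cortex by 1.41 ± 0.18 (1.83e-08, no overlap) and substantia nigra did so by 1.24 ± 0.18 (1.61e-07, 6 of 7 above every cortical library). Substantia nigra differed from striatum there by -0.17 (-0.53 to 0.19).

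C3 was at the edge of detection in Nestin-Cre WT prefrontal cortex. There it lay between 0 and 0.514 cpm (median 0.163), against 0.164 to 1.36 in striatum (median 0.316) and 4.14 to 17.3 in substantia nigra (median 7.49). The AAV-Cre WT libraries lay between 0.447 and 3.27 cpm in prefrontal cortex (median 1.06), between 2.58 and 8.48 in striatum (median 4.59) and between 3.18 and 16.3 in substantia nigra (median 7.65). A count of 0 was found in M4609 of the Nestin-Cre WT prefrontal cortex, which allows up to 0.198 cpm, and in M4393 of the HOM prefrontal cortex, which allows up to 0.268. The striatal C3 libraries of the models did not overlap, the cortical ones overlapped in 1 of 7 AAV-Cre libraries and the nigral ones were intermixed. AAV-Cre exceeded Nestin-Cre WT by 3.13 ± 0.47 in striatum (adjusted p 9.86e-07) and by 2.60 ± 0.55 in prefrontal cortex (0.000363, 7 of 7 above the mean). Without the cortical library of M3588 and the striatal library of M3677 the cortical value was 2.13 (0.00392, with 1.1e-06 to 0.00392 over the alternatives). In substantia nigra the difference was 0.05 (-0.69 to 0.79). The model difference of C3 was larger in striatum than in substantia nigra by 3.08 ± 0.60 (0.000348) and smaller in substantia nigra than in prefrontal cortex by -2.55 ± 0.66 (0.00224), and striatum and prefrontal cortex differed by 0.53 (-1.11 to 2.16). Between regions, C3 in Nestin-Cre WT substantia nigra exceeded prefrontal cortex by 5.20 ± 0.49 (2.14e-12) and striatum by 3.87 ± 0.48 (2.97e-09), without overlap, and striatum exceeded prefrontal cortex by 1.33 ± 0.62 (0.0588). That last value rests on 0 to 12 reads per library in prefrontal cortex and 3 to 26 in striatum, C3 being tested there because other groups passed the filter. It was not called with the mouse as a block (1.27, adjusted p 0.14, with 0.0112 to 0.14 over the alternatives). The other C3 differences that use this cortical group (5.20, 2.60, 0.53 and -2.55) rest on the same 0 to 12 reads, and their size is uncertain. In AAV-Cre WT mice the region differences, in the same order, were 2.65 ± 0.41 (3.78e-07), 0.79 ± 0.36 (0.0496) and 1.86 ± 0.41 (0.000181).

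**Figure D3:**
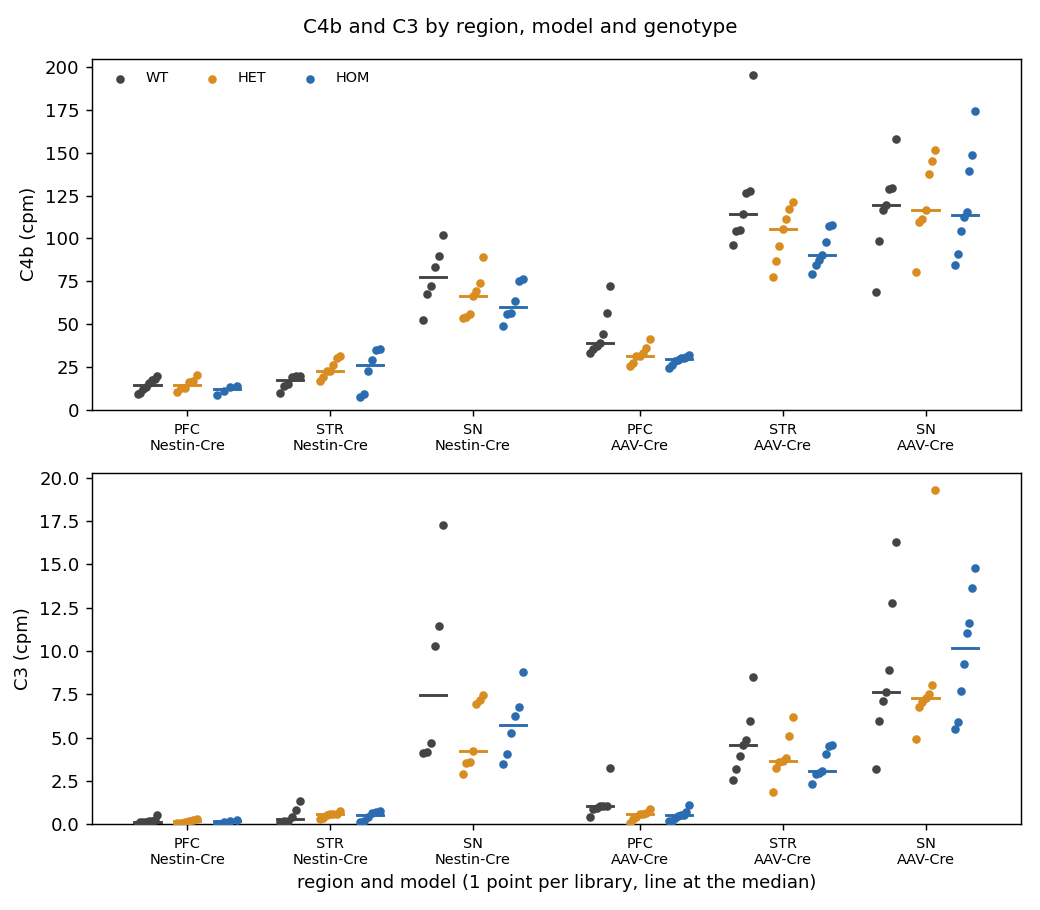
Level of C4b and C3 in cpm by region, model and genotype, with 1 point per library and a line at the group median. In striatum the C4b median of WT mice was 17.2 cpm in the Nestin-Cre and 114.1 cpm in the AAV-Cre model.

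Masp1 encodes a serine protease of the lectin pathway. Nestin-Cre WT libraries had between 9.70 and 12.7 cpm in prefrontal cortex (median 10.3), between 3.63 and 4.44 in striatum (median 4.13) and between 10.9 and 13.5 in substantia nigra (median 11.8). In AAV-Cre WT mice it lay between 7.06 and 10.5 cpm in prefrontal cortex (median 8.12), between 2.99 and 4.50 in striatum (median 3.87) and between 8.23 and 10.1 in substantia nigra (median 8.91). Striatum was below every library of the other regions in both models. It was lower than prefrontal cortex by a log2 fold change of -1.41 ± 0.09 in Nestin-Cre (adjusted p 3.57e-17) and -1.19 ± 0.09 in AAV-Cre WT mice (6.39e-15). Substantia nigra exceeded striatum by 1.43 ± 0.09 (4.9e-17) and 1.16 ± 0.09 (3.59e-15). Substantia nigra and prefrontal cortex differed by 0.02 (-0.15 to 0.19) and -0.03 (-0.19 to 0.14). Between models Masp1 was lower in AAV-Cre WT prefrontal cortex by -0.37 ± 0.08 (0.000583, 7 of 7 below the Nestin-Cre mean and 6 below every library) and in substantia nigra by -0.41 ± 0.08 (7.88e-05, no overlap), and the striatal difference was -0.15 (-0.34 to 0.04).

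Serping1 encodes the C1 inhibitor. In Nestin-Cre WT mice it lay between 5.72 and 13.1 cpm in prefrontal cortex (median 8.74), between 3.48 and 5.25 in striatum (median 4.11) and between 12.4 and 95.7 in substantia nigra (median 19.7). AAV-Cre WT libraries had between 8.57 and 15.1 cpm in prefrontal cortex (median 12.1), between 4.11 and 8.78 in striatum (median 5.84) and between 9.63 and 36.7 in substantia nigra (median 17.2). Nigral libraries were above every striatal one in both models, and their own spread was the widest. Striatum was below prefrontal cortex in Nestin-Cre WT mice by -1.11 ± 0.36 (adjusted p 0.00659), and substantia nigra exceeded prefrontal cortex by 1.92 ± 0.32 (1.44e-06) and striatum by 3.04 ± 0.38 (3.59e-09). Without the nigral libraries of M4329 and M4394 these last values were 0.74 (0.00833, with 2.63e-08 to 0.00833 over the alternatives) and 1.86, and both were called. In AAV-Cre WT mice striatum was below prefrontal cortex by -0.91 ± 0.34 (0.0228), and substantia nigra exceeded striatum by 1.49 ± 0.34 (0.000165). The nigral difference from prefrontal cortex was 0.59 (-0.07 to 1.24, adjusted p 0.112), and it was called in some alternatives, given further below. Between models Serping1 was lower in AAV-Cre WT substantia nigra by -0.99 ± 0.33 (0.00958, 7 of 7 below the Nestin-Cre mean), but without the nigral libraries of M4329 and M4394 the difference was 0.19 (0.552, with 0.00542 to 0.552 over the alternatives). In prefrontal cortex it was 0.35 (-0.30 to 1.00) and in striatum 0.55 (-0.20 to 1.31), the latter called in some alternatives. The model difference of Serping1 was larger in striatum than in substantia nigra by 1.54 ± 0.50 (0.0194) and smaller in substantia nigra than in prefrontal cortex by -1.34 ± 0.46 (0.0191), and without the nigral libraries of M4329 and M4394 these were 0.36 (0.497, with 0.0125 to 0.497 over the alternatives) and -0.16 (0.754, with 0.0127 to 0.754).

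The nigral spread of Serping1 went with markers of meningeal fibroblasts. Among 41 nigral libraries, the 3 with the highest Serping1, at 95.7, 74.0 and 64.3 cpm (M4329, M4394 and M4393), also had the 3 highest sums of 12 meningeal markers, at 9464, 8148 and 13214 cpm. The lowest Serping1, 5.17 cpm in M3687 (AAV-Cre HOM), stood beside a meningeal sum of 480 cpm. In WT mice the sum lay between 1138 and 9464 cpm in Nestin-Cre (median 2171) and between 415 and 3864 in AAV-Cre substantia nigra (median 893), and its most abundant gene per length was Ptgds, at a mean of 1087 cpm. All 12 meningeal markers were called lower in AAV-Cre WT substantia nigra (median -1.47), 0 of 12 in prefrontal cortex (median 0.11) and 0 of 12 in striatum (median 0.09). Their part in the Serping1 values was not tested.

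**Figure D4:**
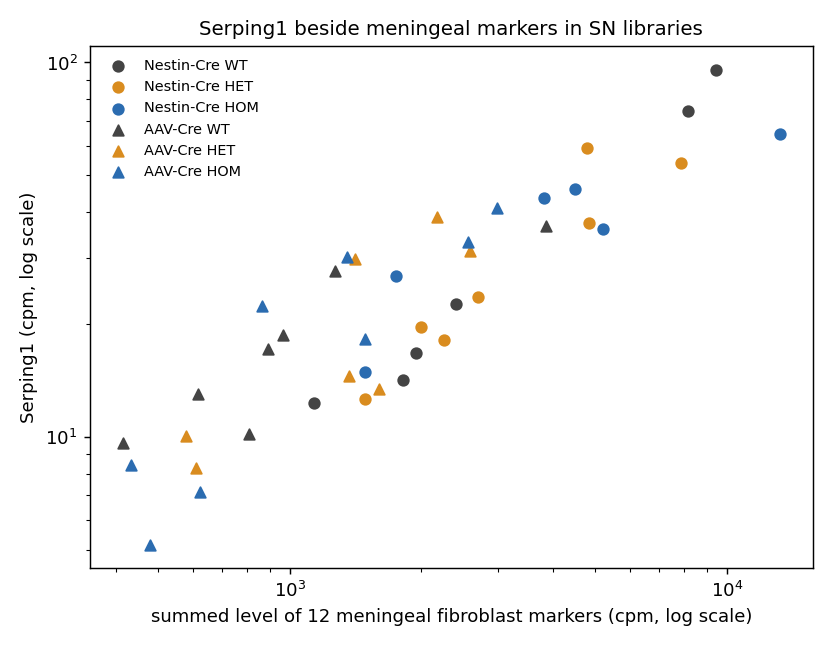
Serping1 in cpm against the summed cpm of 12 meningeal fibroblast markers in the 41 substantia nigra libraries, both on log scales, with 1 point per library. The library with 95.7 cpm of Serping1 had a marker sum of 9464 cpm and the library with 5.17 cpm a sum of 480 cpm.

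C3ar1 and C5ar1 encode the receptors for C3a and C5a, and both were low. C3ar1 lay between 1.06 and 5.02 cpm over all libraries (12 to 85 reads), and C5ar1 between 0 and 1.34 cpm (0 to 34 reads), with 1 count of 0 in M3688 of the AAV-Cre HET prefrontal cortex, which allows up to 0.180 cpm. C3ar1 medians in prefrontal cortex, striatum and substantia nigra were 1.59, 2.36 and 3.92 cpm in Nestin-Cre WT and 2.76, 3.03 and 2.58 in AAV-Cre WT mice. In Nestin-Cre WT mice C3ar1 in substantia nigra exceeded prefrontal cortex by 0.99 ± 0.21 (adjusted p 4.38e-05), striatum exceeded prefrontal cortex by 0.53 ± 0.21 (0.0252), and substantia nigra exceeded striatum by 0.46 ± 0.22 (0.0533, but 0.122 with the mouse as a block and 0.336 without the nigral libraries of M4329 and M4394, with 0.0396 to 0.336 over the alternatives). In AAV-Cre WT mice its 3 region differences lay between -0.14 and 0.08 and none was called. Between models C3ar1 was higher in AAV-Cre WT prefrontal cortex by 0.70 ± 0.20 (0.00694, 7 of 7 above the mean and 6 above every Nestin-Cre library), with 0.26 in striatum (-0.17 to 0.68) and -0.34 in substantia nigra (-0.76 to 0.07). The nigral difference was below the cortical one by -1.05 ± 0.29 (0.00394). C5ar1 had 3 to 10 reads per library in Nestin-Cre WT prefrontal cortex and passed the filter through single libraries of other groups, which limits its differences from that group. C5ar1 medians were 0.355, 0.560 and 0.743 cpm in Nestin-Cre WT and 0.738, 0.567 and 0.522 in AAV-Cre WT mice. C5ar1 exceeded prefrontal cortex by 0.76 ± 0.35 in Nestin-Cre WT striatum (0.0521) and by 0.76 ± 0.35 in substantia nigra (0.0463, and 0.198 without the nigral libraries of M4329 and M4394, with 0.0341 to 0.198 over the alternatives). It was higher in AAV-Cre than in Nestin-Cre WT prefrontal cortex by 0.84 ± 0.34 (0.0541, 5 of 7 above the mean, with 0.0398 to 0.12 over the alternatives).

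Marker lists of cell types were counted in the same model comparison of WT mice, where 20.2% of all genes were called higher and 20.9% lower in prefrontal cortex, 30.6% and 29.1% in striatum and 34.4% and 28.3% in substantia nigra. In prefrontal cortex, 12 of 16 microglial markers were called higher and 1 lower (median 0.35), and their sum had a median of 551 cpm in the younger Nestin-Cre and 698 in the AAV-Cre mice. In striatum 3 were higher and 4 lower (median 0.09, sums 681 and 736 cpm), and in substantia nigra 2 were higher and 9 lower (median -0.36, sums 756 and 649 cpm). Of 12 activated microglia markers (Apoe, 1740 cpm, with Cst7 at 0.150, Itgax at 0.684 and Clec7a at 0.759), 11 were tested, of which 6 were higher and 0 lower in prefrontal cortex (median 0.57), 8 and 1 in striatum (1.20) and 2 and 4 in substantia nigra (-0.08). Sums over all 12, led by Apoe, had Nestin-Cre and AAV-Cre medians of 1109 and 1695, 2051 and 2015, and 2806 and 2189 cpm. Of 17 reactive astrocyte markers (Gfap, 399.3 cpm, with Lcn2 at 0.260, Steap4 at 0.519, Timp1 at 0.424 and Cxcl10 at 0.368), 15 were tested. Of these, 3 were higher and 1 lower in prefrontal cortex (0.21), 10 and 0 in striatum (0.66) and 0 and 6 in substantia nigra (-0.29), and sums over all 17 were 394 and 442, 251 and 434, and 1738 and 1126 cpm. Of 8 interferon response genes (Ifi27, 29.4 cpm), 5 were higher and 0 lower in prefrontal cortex (0.67), 7 and 0 in striatum (1.05) and 0 and 0 in substantia nigra (-0.15), with sums of 60.7 and 77.6, 42.8 and 72.2, and 90.7 and 104.1 cpm.

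The other lists moved as follows from Nestin-Cre to AAV-Cre WT mice, in prefrontal cortex, striatum and substantia nigra. Of 11 border macrophage and monocyte markers, Pf4 was the most abundant per length (0.761 cpm), and Ms4a7 at 0.343, Ccr2 at 0.755, Ly6c2 at 0.102, Plac8 at 0.248, S100a8 at 0.288 and S100a9 at 0.316 were also under 1 cpm. The 7 of them tested had medians of 0.57, -0.10 and -0.95, with 3, 0 and 0 called higher and 0, 1 and 6 lower. Astrocyte markers (10, Aldoc at 988.6 cpm) had medians of 0.25, 0.11 and -0.18, with 7, 3 and 2 higher and 0, 1 and 6 lower. Oligodendrocyte markers (10) had -0.31, 0.15 and -0.88, with 0, 4 and 0 higher and 5, 1 and 10 lower. Choroid plexus markers (8, Ttr at 657.3 cpm) had 0.03, 3.01 and -1.03, with 1, 8 and 1 higher and 0, 0 and 2 lower. Their sum in AAV-Cre WT striatum lay between 115 and 8397 cpm (median 244, highest in M3585). Ependymal markers (6, Rarres2 at 7.50 cpm) had 0.59, 0.67 and -0.07, with 3, 3 and 0 higher and 0, 0 and 1 lower. Endothelial markers (7, Ly6c1 at 29.4 cpm) had 0.44, 0.74 and 0.50, with 5, 6 and 5 higher and 0 lower. Pericyte markers (8, Vtn at 102.4 cpm) had 0.02, 0.19 and -0.60, with 1, 2 and 1 higher and 0, 0 and 4 lower. Neuronal markers (6, Snap25 at 2067 cpm) had -0.28, -0.28 and 0.16, with 0, 0 and 3 higher and 4, 5 and 1 lower. Striatal markers (8) had 0.71, -0.38 and 0.91, cortical markers (6) -0.21, -1.99 and -0.15, and midbrain markers (6) -0.28, -0.11 and 0.08. Which of these went with the members' values was not tested, and fewer cells of a type cannot be told apart from less RNA per cell.

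Between genotypes, 0 members were called by edgeR in any of the 12 comparisons of HET or HOM with WT when each region was fitted on its own. With all 3 regions of a model in 1 edgeR fit, 1 was called in Nestin-Cre striatum HET (C1qa, adjusted p 0.0647, with 0.0647 to 0.222 over the alternatives). In AAV-Cre prefrontal cortex HOM 2 were (C4b, 0.0362, with 4.7e-10 to 0.264, and C1qb, 0.091, with 0.00132 to 0.492). These fits called 1082 of 15403 genes in Nestin-Cre striatum HET and 460 of 15442 in AAV-Cre prefrontal cortex HOM. With each region fitted on its own, 0.25% of all genes tested were called in Nestin-Cre prefrontal cortex HOM, 0.0137% in AAV-Cre prefrontal cortex HOM and 0% in the other 10. In the order prefrontal cortex, striatum and substantia nigra, each HET then HOM, an unadjusted p under 0.05 was reached by 1, 0, 2, 0, 4 and 2 members of the Nestin-Cre model and by 5, 5, 1, 3, 0 and 0 of the AAV-Cre model, of 7, 7, 8, 8, 9 and 9 and of 8, 8, 8, 8, 9 and 9 tested. The 5 and 5 in AAV-Cre prefrontal cortex include C3, which passed the filter there through the WT group. The likelihood-ratio test of edgeR called 0, 0, 2, 1, 2 and 0, then 4, 5, 1, 2, 0 and 0 members, beside 415, 310, 1242, 277, 332 and 119, then 248, 429, 56, 175, 324 and 218 of all genes. DESeq2 called 1, in Nestin-Cre striatum HET, and 0 elsewhere, beside 535 of all genes there and 0 to 227 elsewhere. The share of all genes at an unadjusted p under 0.05 was 9.72, 10.1, 17.3, 4.62, 8.99 and 4.09%, then 12.3, 14.2, 1.71, 4.58, 4.69 and 7.49%. The members' median log2 fold change was 0.04, -0.09, -0.15, -0.10, -0.45 and -0.26 for the Nestin-Cre model and -0.32, -0.37, -0.17, -0.29, 0.06 and 0.03 for the AAV-Cre model, against all-gene medians between -0.00 and 0.01.

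The lowest p of a member in a genotype comparison was that of C4b in AAV-Cre prefrontal cortex HOM. C4b there lay between 24.3 and 32.1 cpm in HOM (median 29.6, n = 8) and between 25.7 and 41.4 in HET (median 31.3, n = 7), against 33.1 to 72.0 in WT (median 39.1, n = 7). Serping1 lay between 6.19 and 10.3 cpm in HOM (median 7.77) and between 7.96 and 12.8 in HET (median 8.67), against 8.57 to 15.1 in WT. All 8 HOM libraries were below every WT library for C4b, and 6 of 8 were for Serping1. For C4b HOM differed from WT by -0.63 ± 0.13 (95% confidence interval -0.90 to -0.37, unadjusted p 4.44e-05, rank 5 of 14628, adjusted p 0.126), and without M3588, the WT library with the highest C4b, by -0.49 (adjusted p 0.264, with 4.7e-10 to 0.264 over the alternatives). For Serping1 it differed by -0.53 ± 0.12 (adjusted p 0.141, with 0.00732 to 0.374 over the alternatives). C1qb lay between 31.6 and 51.5 cpm in HOM (median 44.4) against 47.4 to 73.3 in WT, with 4 of 8 below every WT library and a difference of -0.38 ± 0.12 (adjusted p 0.213, with 0.00132 to 0.492 over the alternatives). C1qc differed by -0.36 ± 0.13 (adjusted p 0.246, 8 of 8 below the WT mean) and C3 by -1.24 ± 0.40 (0.22, 8 of 8), the latter by -0.77 without M3588 (0.536, with 0.00272 to 0.536 over the alternatives). The WT libraries alone let C3 pass the filter here (WT median 1.06 cpm, HET at most 0.895 and HOM at most 1.10). C3 had 6 to 58 reads per WT, 1 to 16 per HET and 2 to 18 per HOM library, which limits its differences. C1qa and C3ar1 differed by -0.23 and -0.31 (adjusted p 0.45 and 0.427), and Masp1 by 0.14, which was not called either.

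AAV-Cre prefrontal cortex HET had differences of the same sign for these genes. C4b differed from WT by -0.48 ± 0.13 (adjusted p 0.34, 7 of 7 below the WT mean, and -0.34 without M3588 with 0.669, from 6.77e-05 to 0.669 over the alternatives), C3 by -1.30 ± 0.42 (0.34, 7 of 7), C1qb by -0.33, C1qc by -0.37 (both 0.34), Serping1 by -0.31 (0.35) and C1qa by -0.25 (0.479). The same limit from the filter and low reads holds for this C3 value. Both genotypes were compared with the same 7 WT libraries, of which M3588 was the highest for 4 of 9 members, C1qa, C1qb, C4b and C3. Marker lists in AAV-Cre prefrontal cortex had 0 genes called as well. Microglial markers had a median of -0.25 in HET and -0.20 in HOM, with 15 and 16 of 16 negative and 8 at an unadjusted p under 0.05 in each, and their sum had medians of 698, 614 and 570 cpm in WT, HET and HOM. Astrocyte markers had -0.20 and -0.18, endothelial markers -0.23 and -0.22, and interferon response genes -0.32 and -0.50. Reactive astrocyte sums had medians of 442, 422 and 379 cpm. Of 8 pericyte markers, led by Vtn, 5 in HET and 6 in HOM were at an unadjusted p under 0.05 (medians -0.26 and -0.24, sums with medians of 289.5, 226.9 and 223.9 cpm in WT, HET and HOM). Of 12 meningeal markers, led by Ptgds, 4 were in each (medians -0.19 and -0.13, sums with medians of 1095, 932.4 and 953.7 cpm). Their part in the members' differences was not tested.

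In AAV-Cre striatum C4b lay between 77.4 and 121.1 cpm in HET (median 105.2) and between 79.2 and 107.8 in HOM (median 90.5), against 95.9 to 195.5 in WT. HOM differed by -0.41 ± 0.13 (adjusted p 0.973, 7 of 7 below the WT mean and 4 below every WT library), and by -0.26 without M3677. HET differed by -0.28 ± 0.13 (adjusted p 1), and by -0.13 without M3677. C1qb in HOM differed by -0.35 ± 0.11 (0.973, 6 of 7 below the WT mean) and Serping1 by -0.36 ± 0.16 (1, 7 of 7). In the WT group of this region M3677 was the highest for 5 members and M3578 the lowest for 8. In AAV-Cre substantia nigra the members' log2 fold changes lay between -0.16 and 0.20 over both genotypes, with a lowest adjusted p of 0.735.

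In Nestin-Cre substantia nigra C1qa lay between 42.9 and 63.6 cpm in HET (median 55.0) and between 41.6 and 72.4 in HOM (median 59.8), against 62.2 to 84.4 in WT, so that 6 of 7 HET libraries were below every WT library. HET differed by -0.45 ± 0.13 for C1qa, -0.45 ± 0.21 for C1qb, -0.56 ± 0.23 for C1qc and -0.78 ± 0.34 for C3 (adjusted p 0.518 for each), and HOM by -0.33 ± 0.13 for C1qa and -0.34 ± 0.15 for C4b (0.892 for both). Microglial markers there had a median of -0.43 in HET and -0.29 in HOM, with 10 and 6 of 16 at an unadjusted p under 0.05 and 0 called, and sums with medians of 756, 671 and 722 cpm in WT, HET and HOM. Oligodendrocyte sums had medians of 28611, 24074 and 22218 cpm, and reactive astrocyte sums 1738, 1259 and 1520. Meningeal sums went the other way (2171, 2698 and 4162), as did pericyte sums (334.9, 424.2 and 509.6). Their part in these differences was not tested. In Nestin-Cre striatum C1qa lay between 42.7 and 59.3 cpm in HET (median 53.8), against 50.1 to 75.9 in WT, and differed by -0.33 ± 0.10 (adjusted p 0.184, 7 of 7 below the WT mean, with 0.0647 to 0.222 over the alternatives). C4b there lay between 17.1 and 31.5 cpm in HET (median 22.8) and between 7.28 and 35.7 in HOM (median 26.0), against 9.73 to 19.7 in WT. HET differed by 0.53 ± 0.29 (0.345, 7 of 7 above the WT mean and 5 above every WT library) and HOM by 0.50 ± 0.30 (0.784, 4 of 6 above and 2 below every WT library). Serping1 in HET differed by 0.45 ± 0.20 (0.269, 7 of 7 above the WT mean). In this region striatal marker sums had medians of 9563, 7007 and 8889 cpm in WT, HET and HOM. Endothelial sums were 127.6, 151.1 and 161.3, oligodendrocyte sums 7958, 6973 and 6629, and microglial sums 681, 635 and 714. The HOM library with the lowest C4b, M4569 (7.28 cpm), had the highest cortical marker sum of its group, 518.9 cpm against a median of 91.9. Their part in these striatal differences was not tested.

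In Nestin-Cre prefrontal cortex HOM, with 4 libraries, C1qa was 33.0, 33.5, 33.8 and 38.6 cpm, within the WT range of 32.8 to 43.7. C4b was 8.75, 11.1, 13.2 and 13.98 cpm, against 9.40 to 19.6 in WT, and differed by -0.31 (95% confidence interval -0.71 to 0.09, adjusted p 0.673). C3 was 0, 0.126, 0.209 and 0.278 cpm and Masp1 8.65, 9.55, 10.4 and 11.4 cpm. C1qb was 28.6, 33.0, 40.5 and 42.1 cpm and C1qc 26.78, 29.3, 32.9 and 42.5 cpm. HET differed from WT by -0.21 ± 0.08 for C1qa (0.374). Oligodendrocyte markers in this region had a median of -0.44 in HET and -0.42 in HOM, with 10 and 9 of 10 at an unadjusted p under 0.05 and 0 called.

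The genotype effects were also compared between models and between regions. In these 18 comparisons 0 members were called by edgeR, DESeq2 was not run, and 0% to 3.54% of all genes were. Between models, AAV-Cre minus Nestin-Cre, an unadjusted p under 0.05 was reached by 1 member for HET and 0 for HOM in prefrontal cortex (0.678% and 3.54% of all genes called), by 3 and 2 in striatum (0.00673% and 0.0202%) and by 3 and 0 in substantia nigra (0% and 0%), and the likelihood-ratio test called 1, 0, 1, 1, 3 and 0, beside 478, 620, 908, 259, 689 and 162 of all genes. The shares of all genes at an unadjusted p under 0.05 were 14.8 and 16.6% in prefrontal cortex, 15.5 and 6.67% in striatum and 14 and 3.32% in substantia nigra. The lowest adjusted p between models was that of C4b in striatum HET, at -0.81 ± 0.32 (0.247), and its values were -0.91 ± 0.32 in striatum HOM (0.69, confidence interval -1.57 to -0.26), -0.52 ± 0.22 in prefrontal cortex HET (0.248) and -0.32 in prefrontal cortex HOM (0.514, -0.79 to 0.16). In substantia nigra the C4b values were positive, at 0.33 in HET (0.491) and 0.38 in HOM (0.986). C1qa in substantia nigra HET had 0.60 ± 0.18 (0.301) and Serping1 in striatum HET -0.63 (0.259).

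Between regions within the Nestin-Cre model, in the order striatum minus prefrontal cortex, substantia nigra minus prefrontal cortex and substantia nigra minus striatum, the members at an unadjusted p under 0.05 were 0, 0 and 1 for HET (0%, 0.013% and 0.0649% of all genes called) and 1, 0 and 1 for HOM (0%, 0% and 0%). Within the AAV-Cre model they were 0, 5 and 0 for HET (0%, 0.0194% and 0.00648%) and 0, 2 and 1 for HOM (0%, 0.188% and 0.00648%). All of these come from unpaired fits. With the mouse as a block, AAV-Cre substantia nigra minus prefrontal cortex had 136 genes called in place of 3 for HET and 692 in place of 29 for HOM. The shares of all genes at an unadjusted p under 0.05 were 5.3, 4.42 and 11.6%, then 2.19, 2.02 and 2.79% for the Nestin-Cre model, and 4.82, 14 and 3.14%, then 4.61, 14.4 and 2.89% for the AAV-Cre model. The likelihood-ratio test called 0, 0 and 2, then 1, 0 and 1 of the Nestin-Cre model, and 0, 5 and 0, then 0, 3 and 1 of the AAV-Cre model, beside 311, 166 and 609, then 65, 51 and 62, and 32, 554 and 282, then 41, 368 and 148 of all genes. The lowest adjusted p was that of C4b in AAV-Cre HOM, substantia nigra minus prefrontal cortex, at 0.66 ± 0.21 (0.129), beside 1.39 ± 0.51 for C3 (0.174). In HET the same difference was 0.54 ± 0.22 for C4b (0.275) and 1.27 for C3 (0.279). Both C3 values rest on the low cortical reads of HET and HOM given above. For AAV-Cre HOM, striatum minus prefrontal cortex, C4b had 0.22 (1, confidence interval -0.21 to 0.65), and for Nestin-Cre HET, substantia nigra minus striatum, -0.77 (0.315).

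The list of other complement genes held 50, each with an entry in the count table. Between genotypes 0 of the 26 to 29 tested were called by edgeR in any of the 12 comparisons, with 4, 3, 3, 4, 9 and 5, then 4, 6, 0, 3, 2 and 2, at an unadjusted p under 0.05, in the order given for the members. The likelihood-ratio test called 1, 1, 3, 2, 4 and 2, and 1, 2, 0, 1, 2 and 2, beside the counts over all genes given for the members. DESeq2 called 0, 1, 0, 0, 1 and 1, and 0, 1, 0, 0, 0 and 0, beside 116, 227, 535, 1, 5 and 1, and 6, 184, 0, 5, 1 and 10 of all genes. Their medians lay between -0.16 and 0.18. In the effects compared between models, Clu for HET (-0.27, adjusted p 0.0843) and Cfp for HOM (-0.75, 0.0185) were called lower in prefrontal cortex, beside 0.678% and 3.54% of all genes called, and 0 were called in the other 16 of these comparisons.

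In WT mice the other complement genes went both ways between regions. Of 31 tested, the counts called higher and lower in Nestin-Cre mice were 8 and 11 for striatum minus prefrontal cortex (median -0.12, beside 35.3% and 35% of all genes), 12 and 8 for substantia nigra minus prefrontal cortex (0.21, beside 38.8% and 41.5%) and 14 and 9 for substantia nigra minus striatum (0.43, beside 39.4% and 39%). In AAV-Cre mice they were 10 and 10 (-0.11, beside 31.7% and 29.6%), 7 and 11 (-0.09, beside 33.5% and 37.1%) and 11 and 9 (0.07, beside 35.4% and 36.8%). Among called genes with a mean of at least 1 cpm in the libraries compared, Cd59a, Csmd3 and C4a were among the highest (1.53, 0.79 and 0.58) and C2, Csmd2 and Colec12 among the lowest (-1.66, -1.47 and -1.02) in Nestin-Cre striatum minus prefrontal cortex. Srpx2 and Cd59a (2.37 and 2.02) and Csmd1, Csmd2 and C4a (-1.87, -1.74 and -1.46) were so in substantia nigra minus prefrontal cortex. Srpx2, C2 and Colec12 (3.78, 3.07 and 2.10) and C4a, Masp2 and Csmd1 (-2.04, -1.68 and -1.23) were so in substantia nigra minus striatum. In AAV-Cre mice these were Cpn1, Cd59a and Itgax (3.05, 1.62 and 1.49) and Srpx2, C1ra and Csmd2 (-1.44, -1.33 and -1.07), then Srpx2, Cd59a and Cd55 (2.04, 1.83 and 1.18) and C1ra, Csmd2 and Csmd1 (-1.31, -0.74 and -0.71), then Srpx2, C2 and Colec12 (3.49, 1.61 and 1.04) and Cpn1, Masp2 and Itgax (-4.79, -1.50 and -1.16). Cpn1 had medians of 0.178 cpm in AAV-Cre WT prefrontal cortex and 0.0559 in substantia nigra, against 1.37 in striatum. It met the limit of 1 cpm through the striatal libraries, so its fold changes there rest on groups near the floor. Medians under 1 cpm limit other differences as well. They were 0.519 for C2 and 0.518 for Srpx2 in Nestin-Cre striatum, and 0.821 for Srpx2 and 0.624 for C1ra in AAV-Cre striatum. C1ra had 0.553 and Itgax 0.791 in AAV-Cre substantia nigra, and Itgax 0.646 in AAV-Cre prefrontal cortex. C4a and C1ra each have a near-identical neighbour gene, so their values are uncertain in the same way as those of C4b. Cd59a has a related neighbour gene, Cd59b, and how far reads were shared between them is not known here either.

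Between models, AAV-Cre minus Nestin-Cre WT, 8 other complement genes were called higher and 2 lower in prefrontal cortex (median 0.23, beside 20.2% and 20.9% of all genes), 14 and 1 in striatum (0.29, beside 30.6% and 29.1%) and 10 and 7 in substantia nigra (0.09, beside 34.4% and 28.3%). By role these were, in prefrontal cortex, striatum and substantia nigra, 2, 4 and 1 higher and 0, 0 and 1 lower of 7 tested in the classical and lectin pathways, 1, 1 and 2 higher and 0, 0 and 1 lower of 4 tested in the alternative and terminal pathways, 2, 6 and 5 higher and 2, 1 and 5 lower of 15 regulators tested, and 3, 3 and 2 higher and 0 lower of 5 receptors tested. The most abundant gene per length was Colec12 in the first (mean 13.7 cpm), Cfp in the second (12.0), Clu in the third (1034) and Itgam in the fourth (24.2). In prefrontal cortex C4a (0.75 ± 0.21, adjusted p 0.0057, medians 3.94 and 2.03 cpm), Itgb2 (0.73 ± 0.11, 1.11e-05) and C1s1 (0.69, 0.0412) were called highest, and Cd55 (-0.75, 0.00221) and C1qbp (-0.25, 0.00127) lower. In striatum C2 (1.58 ± 0.53, 0.0109), Cpn1 (1.13, 0.015) and C1s1 (1.12, 0.00192) were highest and C1qbp lower (-0.36, 7.52e-06). The first 3 had Nestin-Cre medians of 0.519, 0.830 and 0.613 cpm there, so their fold changes rest on a group near the floor. C1s1 in Nestin-Cre prefrontal cortex, at 0.963 cpm, was also under 1 cpm. In substantia nigra C4a (1.72 ± 0.26, 3.98e-07, medians 3.13 and 1.07 cpm), Csmd2 (1.31, 6.49e-09) and Csmd1 (1.17, 1.91e-09) were among the highest and Vtn (-0.93, 5.33e-05) and Colec12 (-0.83, 0.0244) among the lowest. Tested between regions, the model difference was called higher and lower for 2 and 2 in striatum minus prefrontal cortex (median 0.10, beside 15.2% and 14.1% of all genes), 10 and 6 in striatum minus substantia nigra (0.28, beside 14.7% and 19.3%) and 6 and 10 in substantia nigra minus prefrontal cortex (-0.17, beside 25.3% and 19.8%).

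Among the furthest of these were Cd55 (0.89), Cfp (-0.44) and Clu (-0.32) in the first, C1s1 (1.57), Colec12 (1.06), C4a (-0.90), Csmd1 (-0.77) and Csmd2 (-0.60) in the second, and Csmd1 (1.15), Csmd2 (1.00), C4a (0.97), C1ra (-1.28) and Vtn (-1.16) in the third. Genes of these lists with a mean under 1 cpm were C1rb (0.00283), C1s2 (0.299), Mbl1 (0.000413), Mbl2 (0.107), Fcna (0.484), Fcnb (0.00843), Colec10 (0.00739) and Colec11 (0.554) in the classical and lectin pathways, and Cfb (0.541), Cfd (0.0384), Hc (0.435), C6 (0.0314), C7 (0.754), C8a (0.0464), C8b (0.0776) and C9 (0.00334) in the alternative and terminal pathways. Among regulators they were Cfi (0.0372), Cd55b (0.00820), Cd59b (0.940), C4bp (0.0182), Cpn1 (0.591) and Cpn2 (0.00148), and among receptors C5ar2 (0.494), Itgax (0.684), Cr2 (0.473) and Vsig4 (0.0233). C1s1, like C1ra, has a near-identical neighbour and is uncertain.

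Members and other genes were correlated across all libraries after subtracting each group's mean of log2 cpm, over 14363 genes. The libraries come from 43 mice and are not independent, so these Pearson values are a description without a test. The genes closest to C1qa were Tyrobp (0.74), Selplg (0.74) and Ftl1 (0.69), those closest to C1qb included Tyrobp (0.75) and Ftl1 (0.70), and those closest to C1qc were Tyrobp (0.76), Selplg (0.73) and Cd68 (0.73). C4b was closest to Stat3, Acsf2 and Tns3 (0.60 each), C3 to genes that included Msn (0.48) and Flnc (0.45), and Masp1 to Cyfip1 (0.43), Eif2s3x (0.41) and Sema3d (0.40). Serping1 was closest to Bgn (0.92), Colec12 (0.90) and Gpr182 (0.89), C3ar1 to Lyz2 (0.61), Stk17b (0.58) and Efemp1 (0.58), and C5ar1 to Zfp772 (0.47), Ticam1 (0.46) and Slc2a1 (0.46). Among the members the closest pairs were C1qb with C1qc (0.91), C1qa with C1qb (0.76), C1qa with C1qc (0.74) and C4b with C3 (0.56), followed by C3ar1 with C1qb and C1qc (0.53 each) and with Serping1 (0.41).

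Promoters in RefSeq were matched for 2 of the 3 C1q genes and are shown because C1qb and C1qc correlated most closely of the member pairs (0.91). They are 300 bases around the gene start, most of them upstream and the last ones inside the gene. Those of C1qb (GRCm38.p6, chr4:136886151-136886450, minus strand) and C1qc (chr4:136892865-136893164, minus strand) each held 1 match to GAGGAA, the core of the PU.1 binding motif, on either strand, shown in capitals. Of all 32851 annotated promoters of this length, 9289 (28.3%) held at least 1, and a match is a description of the sequence only.

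C1qb: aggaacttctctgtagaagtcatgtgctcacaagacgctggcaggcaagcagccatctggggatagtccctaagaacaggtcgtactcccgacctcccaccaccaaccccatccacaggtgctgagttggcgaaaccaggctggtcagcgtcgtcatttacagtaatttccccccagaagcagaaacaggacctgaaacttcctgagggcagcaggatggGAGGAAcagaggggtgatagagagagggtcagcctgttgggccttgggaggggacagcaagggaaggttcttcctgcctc

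C1qc: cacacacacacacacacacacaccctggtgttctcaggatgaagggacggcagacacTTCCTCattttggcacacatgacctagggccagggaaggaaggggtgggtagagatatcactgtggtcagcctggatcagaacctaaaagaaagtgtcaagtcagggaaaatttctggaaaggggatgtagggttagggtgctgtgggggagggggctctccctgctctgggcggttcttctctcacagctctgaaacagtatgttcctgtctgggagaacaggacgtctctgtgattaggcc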

How the data were processed

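Polyadenylated RNA from 3 brain regions of adult male mice was sequenced from TruSeq Stranded mRNA libraries with 75 bp single-end reads, from 43 mice in 18 groups of region, model and genotype. Per the submitters' processing notes, reads were demultiplexed with bcl2fastq 2.20.0.422, aligned to mm10 with STAR 2.5.2b and counted per gene with featureCounts 1.5.1, and the authors deposited the raw count of reads per gene used here. How reads that fit more than 1 gene were handled, and the strand setting, are not given in the sources used here. The table holds 24412 genes by Entrez ID, of which 6 have no symbol, and 0 of its columns were unused. The labels give 2 months of age for all Nestin-Cre libraries, and the study's text 2 to 3 months for those of striatum and substantia nigra. Libraries held 9869584 to 26750905 counted reads.

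Genes that reached 1 cpm or more in 3 or more libraries of a fit were kept, scaled by TMM and fitted in edgeR 4.0.16 (limma 3.58.1, R 4.3.3) with a trended dispersion and 2-sided quasi-likelihood F tests, adjusted by Benjamini-Hochberg over all genes tested. A gene was called at an adjusted p under 0.1 (alternative 0.05). HET and HOM were compared with WT in each region and model, WT regions and models in a fit of 41 WT libraries, and differences of effects as interaction contrasts. Levels per library are plain cpm, and logs of levels use an offset of 0.5 cpm. Levels are compared between genes only as RPKM. A count of 0 is given the upper limit that 3 counts of the library would reach, and this limit covers counting error only. The confidence intervals of fold changes come from the quasi-likelihood fits and include the spread between libraries. DESeq2 1.42.0 and the edgeR likelihood-ratio test were run as alternatives, with other filters, scalings, sets of libraries in the fit and, for the 4 HOM libraries of Nestin-Cre prefrontal cortex, each library left out, and for the label conflict fits without M4575. Fits that leave out 1 or 2 WT libraries were chosen after seeing the data. The other choices were fixed before the data were examined, but the members and gene lists were chosen with earlier results of these data known. The tests were checked on simulated data. Tables were made with Python 3.11.15 (numpy 2.4.6, pandas 2.3.3).

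Libraries were paired across regions by the mouse number in the labels. As a check, group-centred profiles of the same mouse correlated at medians of 0.18 to 0.30 between regions, against -0.0149 to -0.0008 for different mice. A fit with the mouse as a block was an alternative for comparisons between regions. It was not run for the model difference compared between regions, which rests on unpaired fits.

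Named genes are the 9 members in every comparison and Gdnf in every group; other complement genes called between genotypes, and in each WT comparison the 3 that rose and the 3 that fell most among those called with a mean of at least 1 cpm in the libraries compared; the most abundant gene per length of each marker list and each gene with a mean under 1 cpm; and for each member the 3 genes with the highest Pearson r. Clu and Cfp in the comparisons of genotype effects between models were named after their values were seen. Some genes that the rule names are not reported here. Marker lists, written from general knowledge, cover microglia, activated microglia, border macrophages and monocytes, astrocytes, reactive astrocytes, oligodendrocytes, meningeal fibroblasts, choroid plexus, ependyma, endothelium, pericytes, neurons, interferon response, and striatal, cortical and midbrain neurons. Promoters are RefSeq stretches of 300 bases in GRCm38.p6, most of each before the gene start and the rest after it, for C1qb and C1qc.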

Additional observations from a re-analysis of the deposited data

Results flagged for a closer look

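In 9 of 162 groups of values, 1 library stood far from the others of its group, and chance alone sets apart about 1 in 20 groups. These were C1qa in M4568 of Nestin-Cre prefrontal cortex HOM (38.63 cpm), C4b in M3677 of AAV-Cre striatum WT (195.5 cpm), C3 in M4394 of Nestin-Cre prefrontal cortex WT (0.5144 cpm), in M3588 of AAV-Cre prefrontal cortex WT (3.271 cpm) and in M3652 of AAV-Cre substantia nigra HET (19.31 cpm), and Masp1 in M4575 of Nestin-Cre prefrontal cortex WT (12.74 cpm). The others were Serping1 in M4627 of Nestin-Cre striatum HOM (9.305 cpm) and in M3652 of AAV-Cre prefrontal cortex HET (12.8 cpm), and C5ar1 in M4627 of Nestin-Cre striatum HOM (0.821 cpm).

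The difference between AAV-Cre and Nestin-Cre WT mice itself differed between regions in 15 of 27 member tests by edgeR. Of 15318 genes tested, 4496 were called for striatum minus prefrontal cortex, 5204 for striatum minus substantia nigra and 6898 for substantia nigra minus prefrontal cortex. Striatum exceeded prefrontal cortex by 1.28 for C4b and was below it by -0.49 for C1qa. Striatum exceeded substantia nigra by 2.28 for C4b, 3.08 for C3, 1.54 for Serping1, 0.45 for C1qa, 0.61 for C1qb and 0.59 for C1qc. Substantia nigra was below prefrontal cortex by -0.94 for C1qa, -1.03 for C1qb, -1.08 for C1qc, -1.01 for C4b, -2.55 for C3, -1.34 for Serping1 and -1.05 for C3ar1. Both Serping1 values were not called without the nigral WT libraries of M4329 and M4394. No explanation was tested.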

How the results depend on the processing

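Of 945 member differences recomputed under an alternative, 874 kept their direction, if called, and their side of the threshold, 16 were no longer called, 54 were newly called and 1 reversed. In all, 255 differences were not called in any fit, 24 of them with a change of sign, and 111 were called in the text or in an alternative. The reversed value was Serping1 between models in WT substantia nigra, 0.19 (adjusted p 0.552) without the nigral WT libraries of M4329 and M4394, where the same difference was -0.99 with them and 0.00542 to 0.552 was the range of adjusted p.

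Of 297 counts of members called, 276 stayed within 1.5 times. The likelihood-ratio test, in place of 0, called 2 in Nestin-Cre striatum HET, 1 in its HOM, 2 in Nestin-Cre substantia nigra HET, 4 and 5 in AAV-Cre prefrontal cortex HET and HOM, and 1 and 2 in AAV-Cre striatum HET and HOM. For effects compared between models it called 1 in prefrontal cortex HET, 1 and 1 in striatum HET and HOM and 3 in substantia nigra HET. For effects compared between regions it called 2 in Nestin-Cre HET (substantia nigra minus striatum), 1 and 1 in Nestin-Cre HOM (striatum minus prefrontal cortex, substantia nigra minus striatum), 5 in AAV-Cre HET (substantia nigra minus prefrontal cortex) and 3 and 1 in AAV-Cre HOM (substantia nigra minus prefrontal cortex and minus striatum). DESeq2 called 1 in Nestin-Cre striatum HET. With all 3 regions in 1 fit, 1 was called there and 2, C4b and C1qb, in AAV-Cre prefrontal cortex HOM. Without the nigral WT libraries of M4329 and M4394 the model difference of striatum minus prefrontal cortex held 4 members in place of 2. Leaving out each of the 4 HOM libraries of Nestin-Cre prefrontal cortex gave 0 to 0 members called, but 1 to 122 of all genes in HOM (1 without M4568, 9 without M4569 and 122 without M4580, against 36). The cause was not tested.

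With the mouse as a block, which uses the pairing of regions, C3 in Nestin-Cre WT striatum minus prefrontal cortex was 1.27 (adjusted p 0.14, with 0.0112 to 0.14 over the alternatives) and C3ar1 in substantia nigra minus striatum 0.39 (0.122, with 0.0396 to 0.336), and neither was called. C1qb in AAV-Cre WT striatum minus prefrontal cortex was 0.20 (0.0706, with 0.0706 to 0.335) and was called. Serping1 between models in WT striatum was called in 2 of 9 alternatives (0.0173 to 0.43) and in AAV-Cre WT substantia nigra minus prefrontal cortex in 4 of 9 (0.0205 to 0.144), and C5ar1 in prefrontal cortex was not called with all groups in 1 fit (0.12, range 0.0398 to 0.12).

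Counts over all genes moved more. In place of 0, the likelihood-ratio test called 415 in Nestin-Cre prefrontal cortex HET, 1242 and 277 in striatum HET and HOM, 332 and 119 in substantia nigra HET and HOM, 248 in AAV-Cre prefrontal cortex HET, 56 and 175 in striatum and 324 and 218 in substantia nigra. DESeq2 also called 116 in Nestin-Cre prefrontal cortex HET and 535 in striatum HET, and 0 to 10 in the others of these. The fit of all 3 regions called 1082 in Nestin-Cre striatum HET, 193 in AAV-Cre prefrontal cortex HET, 22 and 13 in AAV-Cre substantia nigra HET and HOM, and 0 to 4 in the others. In Nestin-Cre prefrontal cortex HET, 91 were called without M4575, 39 with only the 2 genotypes in the fit and 0 to 54 without 1 HOM library. Nestin-Cre prefrontal cortex HOM had 36, with 0 in the fit of all 3 regions, 5 with only the 2 genotypes, 227 by DESeq2 and 310 by the likelihood-ratio test, and AAV-Cre prefrontal cortex HOM had 2, with 1 without M3588, 184 by DESeq2, 429 by the likelihood-ratio test and 460 in the fit of all 3 regions. For effects compared between models in prefrontal cortex HET and HOM, the 100 and 523 became 34 and 337 without a filter, and by the likelihood-ratio test 478 and 620, and without M4575 the 100 became 208. By that test the 1 and 3 in striatum became 908 and 259, and the 0 in substantia nigra 689 and 162. Between regions, in the order used for the members, it gave 311, 166 and 609 for Nestin-Cre HET (0, 2 and 10 in the text, 0 and 2 for the last pair with the block), 65, 51 and 62 for Nestin-Cre HOM (0 each), 32, 554 and 282 for AAV-Cre HET (0, 3 and 1, and 0, 136 and 0 with the block) and 41 and 148 for the first and last of AAV-Cre HOM (0 and 1, and 0 each with the block). The middle one of these had 29, with 0 without a filter, 1 with DESeq2 size factors, 368 by the likelihood-ratio test and 692 with the block. Counts in WT comparisons stayed within 1.5 times. Depth limits C5ar1, at 0 to 34 reads per library, and C3 in Nestin-Cre prefrontal cortex.

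Group sizes were 4 to 8 mice, all male and of 1 mixed background, and regions of a mouse are not independent. Tissue was dissected whole, so the cells that carried a transcript are unknown. The models share no control group, and their difference holds age, Cre source, surgery and experiment together. Read sharing between C4b and C4a is uncertain. Gdnf was not called in the 6 genotype comparisons that tested it.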
